A study of Mus musculus with 2 samples.

Results

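The tripartite motif (TRIM) genes on a mouse expression array were compared between primary hepatocytes given control siRNA and primary hepatocytes given G0s2 siRNA. Members were all probes for genes, as opposed to control spots, whose name in the array annotation was Trim followed by a digit. They comprised 89 probes on 98 spots and 62 genes, of 23602 named genes on the array. A gene's value came from its brightest probe of those that the scanner marked as well above background on either array. That gave a value for 42 of the 62 genes, of 15419 genes measured in all. The members were divided into 11 genes known to be induced by type I interferon, of which 10 were measured, and 51 others, of which 32 were measured.

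TRIM proteins share an amino-terminal RING domain, B-boxes and a coiled coil, and most act as ubiquitin E3 ligases that take ubiquitin from an E2 enzyme and place it on a substrate. The carboxy-terminal domain differs between members and sets what each one binds. A subset with a PRY-SPRY domain is induced by interferon and either restricts viruses or tunes the sensing of viral nucleic acid, in liver cells as in other tissues. Other members act as nuclear corepressors, microtubule-binding proteins or muscle ligases.

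The series holds 1 array for each of the 2 siRNAs, both from mouse primary hepatocytes, the main cell type of the liver taken freshly into culture. Both groups were plated in 24-well plates in medium with 10% serum and received 50 pmol of siRNA with a lipid reagent, and RNA was taken 24 hours later. The strain, sex and age of the mice and the number of animals or wells behind each array are not given in the sources used here. Since neither siRNA has a second array, no difference has a replicate check or a p-value, and each compares 2 arrays. G0s2 encodes an inhibitor of the triglyceride lipase encoded by Pnpla2, and the series addressed how its knockdown affects hepatocyte expression.

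Levels are log2 processed signals minus the array's own 75th percentile of signal, which was 418 with control siRNA and 728 with G0s2 siRNA. A level of 0 therefore means a signal equal to that percentile. Differences are G0s2 siRNA minus control siRNA on the log2 scale, and the value after ± is the scanner's own signal error carried to the difference. That error had a median of 0.20 over the members measured on both arrays and says nothing of how cultures, extracts or labelling reactions vary. The targeted gene itself had a level of -0.13 with control siRNA and -2.83 with G0s2 siRNA, a difference of -2.70 ± 0.21 or 6.50-fold lower. The 10 hepatocyte markers examined, among them Alb and Hnf4a, were well above background on both arrays.

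The 300-base RefSeq promoter entries (250 bases before to 50 after the start site, GRCm38.p6) were searched for the core of the interferon-stimulated response element, GAAA followed by any 2 bases and GAAA, on both strands and with overlapping matches kept. Of the interferon-inducible members, 10 had an entry and 7 of these (70%) held the core. Of 37 other members with an entry, 1 did (2.70%), Trim2. The share was 3.99% over all 27025 genes with an entry. Trim25, Trim38 and Trim56 had entries without the core. The windows of the 7 genes follow with the matched letters in capitals, because these genes include the members with the lowest interferon-inducible differences, together with the window of Trim12c. Each runs 5′ to 3′ on the gene's strand from 70 bases before to 30 bases after the start site, except for Trim26, whose matches lie farther upstream.
Trim30a, chr7:104465164-104465263, minus strand: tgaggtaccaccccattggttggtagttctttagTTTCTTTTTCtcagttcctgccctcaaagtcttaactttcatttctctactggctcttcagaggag
Trim30d, chr7:104507820-104507919, minus strand: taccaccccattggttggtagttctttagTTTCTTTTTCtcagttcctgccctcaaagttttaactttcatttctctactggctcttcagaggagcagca
Trim12a, chr7:104315466-104315565, minus strand: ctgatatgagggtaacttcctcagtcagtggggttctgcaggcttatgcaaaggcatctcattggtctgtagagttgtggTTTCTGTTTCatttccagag
Trim12c, chr7:104353320-104353419, minus strand: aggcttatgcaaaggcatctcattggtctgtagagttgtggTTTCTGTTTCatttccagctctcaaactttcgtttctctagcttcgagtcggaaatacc
Trim5, chr7:104288077-104288176, minus strand: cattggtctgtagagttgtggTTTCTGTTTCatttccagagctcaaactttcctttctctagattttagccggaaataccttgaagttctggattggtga
Trim34a, chr7:104244387-104244486, plus strand: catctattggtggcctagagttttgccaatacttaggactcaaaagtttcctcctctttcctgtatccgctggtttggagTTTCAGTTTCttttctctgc
Trim21, chr7:102565453-102565552, minus strand: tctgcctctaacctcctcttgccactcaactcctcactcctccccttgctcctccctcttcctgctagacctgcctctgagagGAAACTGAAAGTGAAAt
Trim26, chr17:36836956-36837015, plus strand: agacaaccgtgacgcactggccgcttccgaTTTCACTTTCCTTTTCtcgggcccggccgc
Trim30a has another start site whose entry also held the core, and its window is not shown. In Trim21 and Trim26 overlapping copies of the core form a longer run. The full entries of Trim30a and Trim30d share a run of 118 identical bases, those of Trim5 and Trim12a one of 241, and those of Trim12a and Trim12c one of 71. The core of the gamma-activated site, TTC followed by any 3 bases and GAA, was present in 1 of 10 interferon-inducible and 4 of 37 other entries, against 9.55% of all genes. A match describes letters in this window and is not a binding site.

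Every interferon-inducible TRIM gene measured on both arrays was lower with G0s2 siRNA relative to the 75th percentile, although all 9 were higher when the arrays were centred on spike-in controls instead. Their differences ran from -1.47 to -0.22 with a median of -0.81. The median was 0.02 over the 31 other members with a difference and -0.04 over all genes. Over those measured on both arrays these were 0.01 and -0.06. Under spike-in centring the interferon-inducible, other and all-gene medians were 0.76, 1.60 and 1.54. The interferon-inducible median then lay 0.78 below that of all genes, against 0.77 below it in the values reported here. Such centring shifts each array by a constant, so this distance could hardly change and is no separate check. Of all 15419 genes measured, 52.1% had a difference below 0, or 53.7% of the 14980 with a difference. Of the 14120 genes measured on both arrays, 7782 were below 0. Genes are not replicates, and the family's values come from the same pair of arrays.

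**Figure D1:**
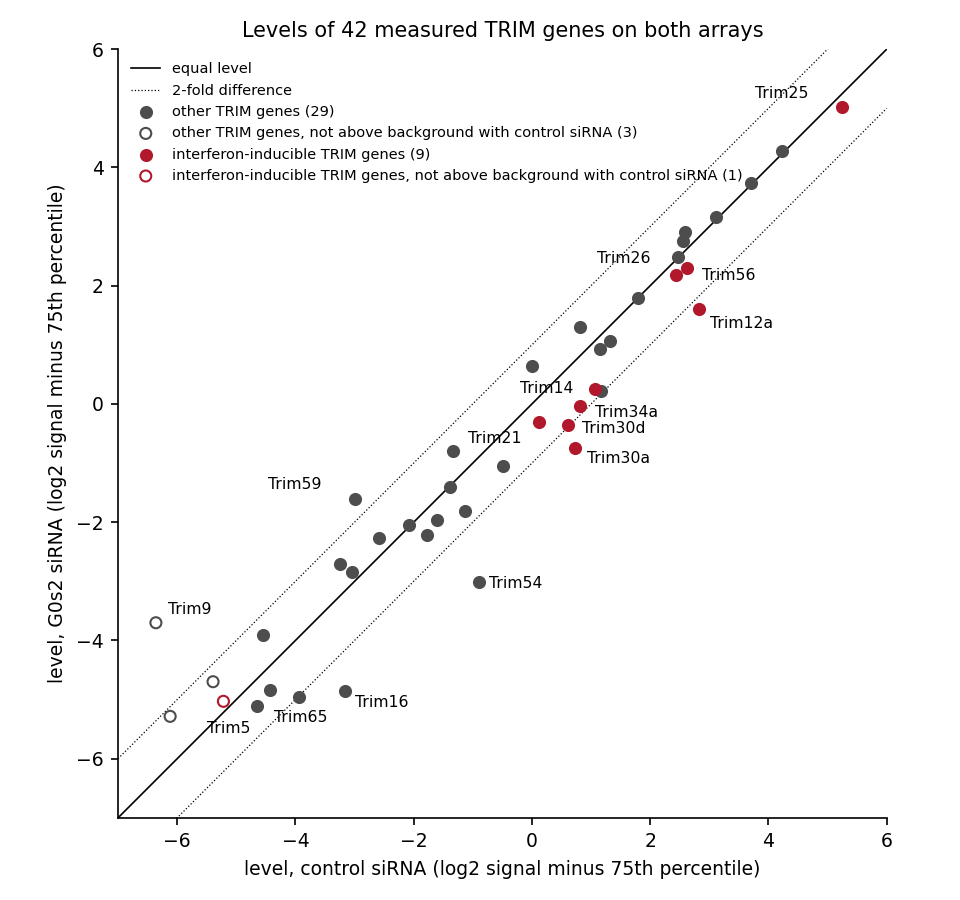
Level of each of the 42 measured TRIM genes with control siRNA (x axis) and G0s2 siRNA (y axis), both in log2 signal minus the array's 75th percentile; red points are interferon-inducible members, grey points the others, open points were not well above background with control siRNA, and dotted lines mark a 2-fold difference. The vertical distance of a point from the solid line is its difference, and all 9 filled red points lie below that line, or above it with spike-in centring.

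Trim30a, which encodes an inhibitor of NF-kappa-B signalling that acts on the adaptors Tab2 and Tab3, had the lowest value of the interferon-inducible members. Its level was 0.72 with control siRNA and -0.74 with G0s2 siRNA, a difference of -1.47 ± 0.20 or 2.76-fold lower. Trim12a, a mouse relative of the retroviral restriction factor TRIM5, had levels of 2.83 and 1.61, a difference of -1.22 ± 0.20 or 2.33-fold lower. A separate Trim12a probe gave -1.11. These were the only interferon-inducible members at least 2-fold lower, 2 of 10 measured, and none was at least 2-fold higher. The background over all genes measured was 5.46% for lower and 4.81% for higher by this rule, 10.3% in either direction. Under spike-in centring both differences changed sign, to 0.11 for Trim30a and 0.35 for Trim12a.

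The next 3 genes of this group lay inside the 2-fold line. Trim30d, the neighbour and close copy of Trim30a that the array annotation calls Trim79, had levels of 0.61 and -0.36, a difference of -0.96 ± 0.20. Trim34a, another relative of TRIM5, had levels of 0.82 and -0.04, a difference of -0.85 ± 0.20, and its other probe gave -1.11. Trim14, an adaptor of the mitochondrial antiviral complex around Mavs, had levels of 1.07 and 0.26, a difference of -0.81 ± 0.20. The 2 Trim14 probes disagreed, since the other one gave -0.06, and averaging them gave -0.44. That average also moved the group's median to -0.44, because Trim14 is its middle gene.

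The remaining interferon-inducible members had smaller differences. Trim21, the cytosolic antibody receptor, had levels of 0.13 and -0.30, a difference of -0.43 ± 0.20. Trim56, a ligase of the DNA-sensing pathway, had levels of 2.62 and 2.30, a difference of -0.32 ± 0.20. Trim26, a regulator of interferon-beta production, had levels of 2.43 and 2.18, a difference of -0.25 ± 0.20. For Trim25, the ligase that activates the RNA sensor encoded by Ddx58, the levels were 5.25 and 5.03, a difference of -0.22 ± 0.20. The differences of Trim56, Trim26 and Trim25 were each smaller than 1.96 times the scanner error, and those of the other 6 exceeded it. Under normexp background correction, 8 of the 9 remained below the median of all genes.

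For Trim5 and Trim38 no difference could be given. The Trim5 probe was not well above background with control siRNA and its level with G0s2 siRNA, -5.03, lay below the lowest level counted as above background on the control array, -4.87. Trim38, an inhibitor of Toll-like receptor signalling, was not well above background on either array. Its promoter entry held the core of the gamma-activated site.

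Members with and without the response element core in their promoter entry overlapped in their differences. The 6 interferon-inducible genes with the core and a difference ran from -1.47 to -0.25, with a median of -0.91. Trim25 and Trim56, without the core, were at -0.22 and -0.32. Trim2, an NHL-repeat member with the core, was at 0.49. Over all genes with an entry and a difference, 10.1% of the 405 with the core were at least 2-fold lower, against 5.56% of the 10611 without it, and their medians were -0.10 and -0.05.

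**Figure D2:**
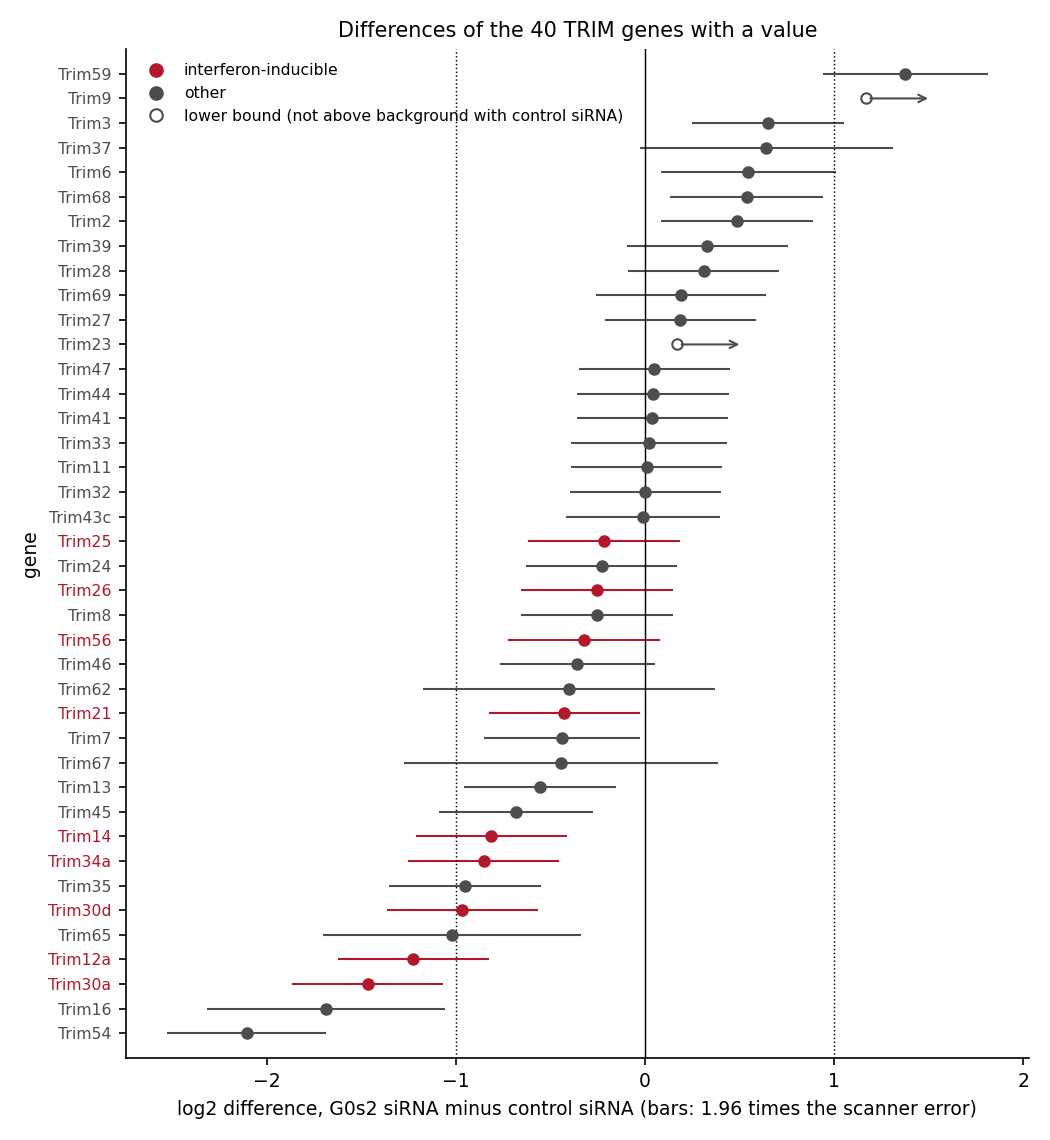
Log2 difference (G0s2 siRNA minus control siRNA, x axis) of the 40 TRIM genes with a value, ordered by difference; red marks interferon-inducible members, bars are 1.96 times the scanner error, and open points with arrows are lower bounds. The red genes lie between -1.47 and -0.22 (all above 0 with spike-in centring), while the others range from -2.11 to 1.38.

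The other members spread to both sides of 0 and overlapped the interferon-inducible range. Of the 31 with a difference, 13 were below 0 and 18 above it. The 18 include Trim9 and Trim23, whose values are bounds that by the rule could only lie above 0. Of the 29 measured on both arrays, 13 were below 0 and 4 lay at or below the interferon-inducible median. Among all 42 measured members, 5 were at least 2-fold lower (11.9%) and 2 at least 2-fold higher (4.76%), against the 5.46% and 4.81% of all genes given above. Higher genes thus made up 28.6% of the members past 2-fold, and this share was 0% under normexp and 100% with spike-in centring, where 30 members were past 2-fold upwards and 0 downwards. Of the 15419 genes measured, spike-in centring placed 12661 past 2-fold upwards and 38 downwards. Normexp placed 377 of them upwards and 536 downwards. The lower members beside Trim30a and Trim12a were Trim54, Trim16 and Trim65, and the higher ones Trim59 and Trim9.

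Trim54, the muscle ring finger protein 3 of sarcomeres and microtubules, had levels of -0.90 with control siRNA and -3.01 with G0s2 siRNA. Its difference of -2.11 ± 0.21, or 4.30-fold lower, was the lowest of the family and was -1.67 under normexp. The related muscle ligases Trim55 and Trim63 were not well above background on either array. Trim16, which lacks a RING and takes part in the response to damaged endomembranes, had levels of -3.16 and -4.85, a difference of -1.69 ± 0.32 or 3.22-fold lower. Normexp gave -1.06 for Trim16. With spike-in centring Trim54 was at -0.53 and Trim16 at -0.11. Trim65, a ligase of the RNA sensor encoded by Ifih1, had levels of -3.93 and -4.95, a difference of -1.02 ± 0.35. Its other probe, well above background with G0s2 siRNA only, gave 0.36, and spike-in centring turned the difference of the probe used to 0.55. Trim65 was also inside the 2-fold line under normexp (-0.66), loess (-0.94) and the mean over probes (-0.55), which each left 4 members at least 2-fold lower. Of the 15419 genes measured, these settings placed 536, 796 and 813 at least 2-fold lower.

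Trim59, a membrane-anchored member, had levels of -2.99 with control siRNA and -1.61 with G0s2 siRNA, a difference of 1.38 ± 0.22 or 2.60-fold higher. A separate Trim59 probe gave 1.16, while normexp reduced the difference to 0.66. Trim9, a brain-enriched member, was not well above background with control siRNA, where its level was -6.36. With G0s2 siRNA the level was -3.70, which makes it at least 2.25-fold higher than the lowest level counted as above background. The other 2 Trim9 probes were not well above background on either array, and normexp gave a difference of 0.13.

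By carboxy-terminal domain, the 20 PRY-SPRY members with a difference, which include 7 of the 9 interferon-inducible genes, had a median of -0.23. Of these 20, 12 were below 0 (60%, near the 53.7% of all genes with a difference). Trim25 and Trim47 had the brightest probes of this group, and Trim47 had levels of 4.23 and 4.28, a difference of 0.05 ± 0.20. Trim35, counted as interferon-inducible only in a wider list, had levels of 1.17 and 0.22, a difference of -0.95 ± 0.20, although its other probe, not well above background on either array, gave 0.36. Trim6, a ligase of interferon signalling in the wider list too, had levels of -3.25 and -2.71, a difference of 0.55 ± 0.24. Its other probes, not well above background on either array, gave -0.76 and 0.30.

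The PHD and bromodomain members, which are chromatin corepressors, had differences of -0.23 to 0.31. Trim28, the corepressor of Krüppel-type zinc finger proteins, had levels of 2.59 and 2.90, a difference of 0.31 ± 0.20. Trim24, a cofactor of nuclear receptors, had levels of 1.15 and 0.92, a difference of -0.23 ± 0.20, and its other probe gave 0.19. Trim33, a ligase of Smad4, differed by 0.02 ± 0.21. All 3 differences were smaller than 1.96 times the scanner error.

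The 3 NHL-repeat members measured were at or above 0. Trim3 had levels of 0.00 and 0.65, a difference of 0.65 ± 0.20, with 0.53 from its other probe. Trim2 had levels of 0.81 and 1.30, a difference of 0.49 ± 0.20, with 0.94 from its other probe. Both are best known as ligases of neurons. Trim32, mutated in a form of limb-girdle muscular dystrophy, had levels of 1.79 and 1.80, and the stem cell member Trim71 was not well above background on either array.

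Of the smaller groups, Trim13, a ligase of the endoplasmic reticulum membrane, had levels of -0.50 and -1.05, a difference of -0.55 ± 0.20, and its other probe gave -0.58. Trim45, with a filamin repeat alone, had levels of -1.12 and -1.80, a difference of -0.68 ± 0.21. Its other probes, not well above background on either array, gave -0.34 and 1.04. Trim37, with a MATH domain and a role at centrosomes and peroxisomes, had levels of -4.55 and -3.90, a difference of 0.64 ± 0.34. Trim23, with an ARF-type GTPase domain, was well above background with G0s2 siRNA only. Its bound, 1.13-fold higher, could by the rule only lie above 0. On the log2 scale that bound was 0.17, smaller than the scanner error of 0.62. Of the members with COS, fibronectin and SPRY domains, Trim46 had levels of -1.60 and -1.96 and Trim67 levels of -4.66 and -5.10, differences of -0.36 ± 0.21 and -0.45 ± 0.42. Trim44, with none of these domains, had levels of 3.12 and 3.17.

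How far a single value can be read is shown by probes of the same gene. Among members with several probes, 10 pairs were measured on both arrays by both probes. In 9 of the 10 pairs the probes had the same sign, the median gap between them was 0.19 and the largest was 0.75, in Trim14. Trim8, a regulator of cytokine signalling, was printed on 10 spots. Its level over spots was 1.32 ± 0.034 (SD, n = 9 after 1 outlier spot was left out) with control siRNA and 1.07 ± 0.080 (SD, n = 10) with G0s2 siRNA. The difference over the 9 shared spots was -0.25 ± 0.079 (SD). Spots of one array share its RNA and labelling, so this spread covers only printing and scanning.

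Of the probes themselves, 4 are shown, for cluster genes that may share signal with a relative and for the 2 lowest members of the family. They are the second Trim12a probe and the probes used for Trim30d, Trim16 and Trim54, each 60 bases long and printed 5′ to 3′ as in the array annotation.
Trim12a, mm9 chr7:111452759-111452818, minus strand: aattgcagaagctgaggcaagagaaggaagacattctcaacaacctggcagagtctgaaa
Trim30d, mm9 chr7:111620805-111620864, minus strand: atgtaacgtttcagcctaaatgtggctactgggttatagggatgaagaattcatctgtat
Trim16, mm9 chr11:62654113-62654172, plus strand: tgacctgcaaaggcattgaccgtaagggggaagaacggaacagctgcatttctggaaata
Trim54, mm9 chr5:31438425-31438484, plus strand: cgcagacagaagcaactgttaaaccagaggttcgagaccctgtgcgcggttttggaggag
Exon and UTR annotation on mm9 was not used here.

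The lowest interferon-inducible values came from 1 gene cluster on chromosome 7. Between Trim6 and Trim30e-ps1 the RefSeq gene order holds 21 genes, of which 11 are TRIM genes and 7 of these were measured. Trim34a, Trim12a, Trim12c, Trim30a and Trim30d were all below 0, although Trim34a, Trim12a, Trim30a and Trim30d lay above it with spike-in centring. Trim6, at the edge of the cluster, was above 0. Trim12c, which the array annotation names otherwise and which is therefore no member, had levels of 0.01 and -1.56, a difference of -1.57 ± 0.21 or 2.96-fold lower. Spike-in centring would place Trim12c higher by the shift of all genes, from -0.04 to 1.54, and so near 0. Trim30b, Trim30c and Trim30e-ps1 were not well above background on either array, and Trim34b had no probe named for it. The Trim12, Trim30 and Trim34 genes are known as close copies, whose transcripts may bind each other's probes. Probes were not aligned to the related transcripts here, so the separate values of these genes are uncertain.

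**Figure D3:**
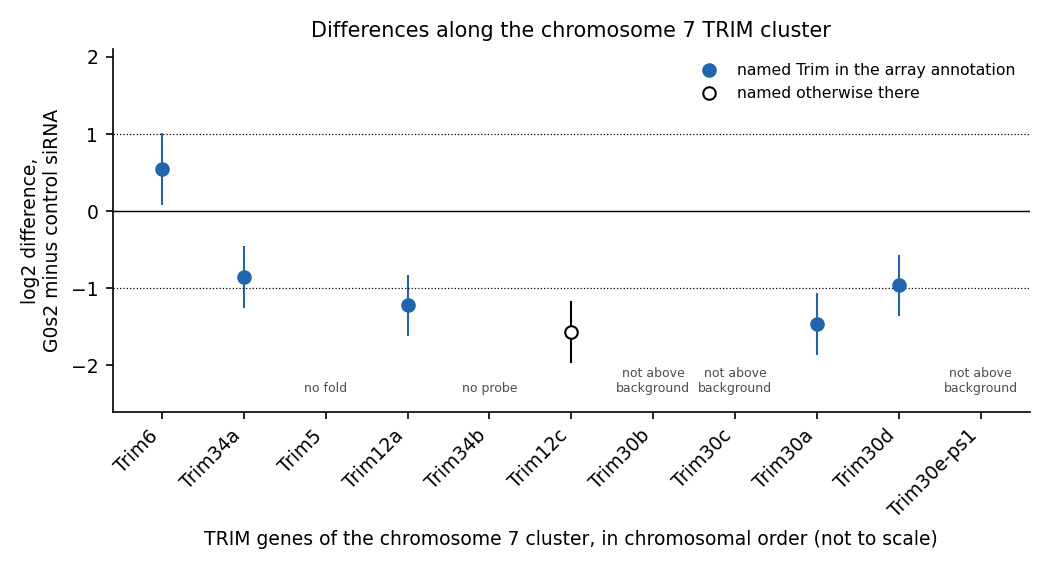
Log2 difference (G0s2 siRNA minus control siRNA, y axis) of the 11 TRIM genes of the chromosome 7 cluster in chromosomal order, with bars of 1.96 times the scanner error; filled points are named Trim in the array annotation, the open point otherwise, and words mark genes with no difference. Of the 6 genes with a point, Trim6 lies above 0 and the other 5 below it. With spike-in centring the 4 filled ones of these 5 lie above 0, and the open one would lie near 0.

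Counted as interferon-inducible members, 4 genes of the cluster had a difference, with a median of -1.09. The 5 interferon-inducible members elsewhere in the genome (Trim14, Trim21, Trim25, Trim26 and Trim56) had a median of -0.32, all below 0 (above it with spike-in centring), and none was at least 2-fold lower. Leaving out the copies thus moved the group's median from -0.81 to -0.32, with 0.02 for the other members. A narrow list of 6 textbook members gave -0.91, and a wide list that adds Trim6, Trim8, Trim35, Trim58, Trim68 and Trim69 gave -0.37 over 14 members.

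Interferon genes outside the family were also lower for the most part, relative to the 75th percentile. Of 45 genes of a type I interferon list, 44 were measured and 41 were below 0 (93.2%, against 53.7% of all genes with a difference). At least 2-fold lower were 27 (61.4%, against 5.46% of all genes), and 1 was 2-fold or more higher (2.27%, against 4.81%). The list's median was -1.12 and turned to 0.45 with spike-in centring. The list includes Isg15, the ubiquitin-like modifier for which Trim25 is also a ligase, at -1.69 ± 0.20, and Stat2, a transcription factor of the interferon response, at -1.10 ± 0.20. Usp18, the protease that removes Isg15, was at 1.05 ± 0.20. Of 32 list genes with a promoter entry, 17 held the response element core (53.1%), beside the 70% of interferon-inducible TRIM genes. This list was drawn up with earlier results of these data known and is not independent evidence of a direction.

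**Figure D4:**
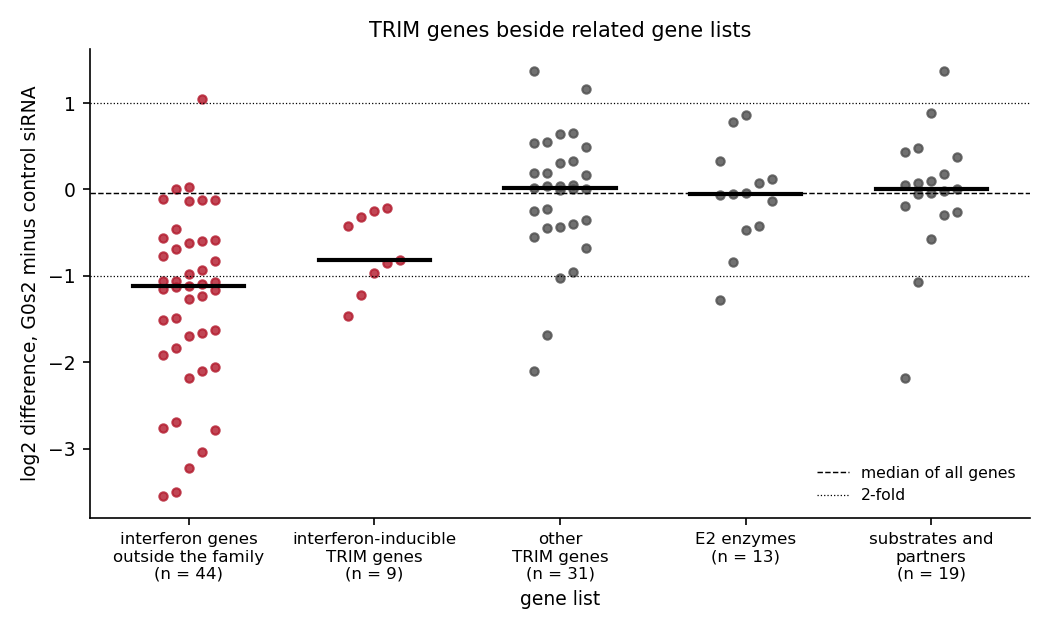
Log2 difference (G0s2 siRNA minus control siRNA, y axis) of each gene in 5 lists, with n the genes that have a difference, black bars the list medians, the dashed line the median of all genes and dotted lines a 2-fold difference. The medians are -1.12 for the interferon genes outside the family, -0.81 for interferon-inducible TRIM genes and 0.02 for the other TRIM genes, and spike-in centring places them at 0.45, 0.76 and 1.60.

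Genes for proteins that TRIM ligases work with had a median near 0. Of 21 substrates and partners, 19 were measured, with a median of 0.01. At least 2-fold lower were 2 of them (10.5%, against 5.46% of all genes) and at least 2-fold higher was 1 (5.26%, against 4.81%). The RNA sensor genes Ddx58, a substrate of Trim25, and Ifih1, a substrate of Trim65, differed by -2.19 ± 0.20 and -1.07 ± 0.20, and both also belong to the interferon list. Tbk1, the kinase that phosphorylates Irf3, was the higher one, with levels of -0.77 and 0.60, a difference of 1.37 ± 0.20. Mavs, the adaptor of both sensors, differed by -0.05 ± 0.20, Traf6 by 0.08 ± 0.21 and Tab2, the partner of Trim30a, by 0.09 ± 0.20. Spike-in centring would place each of these values higher by the shift of all genes, from -0.04 to 1.54.

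The E2 enzymes that load TRIM ligases had a median of -0.05 over 13 measured of 14. Only Ube2e2, with levels of 2.81 and 1.52, was at least 2-fold lower, by -1.28 ± 0.20 (7.69% of those measured, against 5.46% of all genes). None was at least 2-fold higher, against 4.81% of all genes. Ube2l6, the E2 enzyme of Isg15, differed by -0.84 ± 0.20. Ube2n and Ube2v1, which build lysine-63 chains with several TRIM ligases, differed by -0.06 ± 0.20 and -0.13 ± 0.20, and the related Ube2v2 by 0.86 ± 0.20.

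Markers of other liver cells were present in the RNA, and in such bulk samples fewer cells of a type and less RNA per cell cannot be told apart. Of 10 macrophage markers 9 were measured, with Cd163 not above background. Their summed signal relative to the 75th percentile was 13.8 with control siRNA and 12.7 with G0s2 siRNA, but their median difference was 0.35. Mpeg1, with levels of 2.85 and 1.67, was the brightest of them with control siRNA. Of the 9 genes 6 were above 0, Lyz2 as a bound. The summed signal went from 7.69 to 4.36 for 6 of 8 cholangiocyte markers, with Epcam and Cftr not above background. Of these 6 genes 5 were below 0, while Prom1 was at least 2.31-fold higher, as a bound. The summed signal went from 2.81 to 1.82 for Cd3e and Nkg7, the only measured ones of 8 lymphocyte and neutrophil markers, with Ptprc, the pan-leukocyte marker, not above background. The median differences of these 2 lists were -0.91 and -0.54. For 7 of 8 endothelial markers, with Tek not above background, the sum was 9.71 and 7.37 but the median difference was 0.77. Kdr, with levels of 3.13 and 2.62, makes up most of that sum, and 4 of the 7 genes were above 0. For 3 of 8 stellate cell markers the sum was 0.21 and 0.26 and the median difference 0.29, with Des, Lrat, Pdgfrb, Reln and Hand2 not above background. The sum over the 10 hepatocyte markers was 1174 and 1400, with a median difference of 0.38. The part of these differences in the TRIM values was not tested.

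Differences also varied with where a probe lies in its transcript. Over all genes, split into 10 bins by that position, the median difference was -0.16 in the bin nearest the start and 0.07 in the farthest one. The probes of the interferon-inducible members lay 1377 to 5476 bases into their transcripts with a median of 2800, and those of the other members had a median of 2826. After subtraction of each gene's bin median, a step chosen after seeing the data, the group medians were -0.83 and -0.01.

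**Figure D5:**
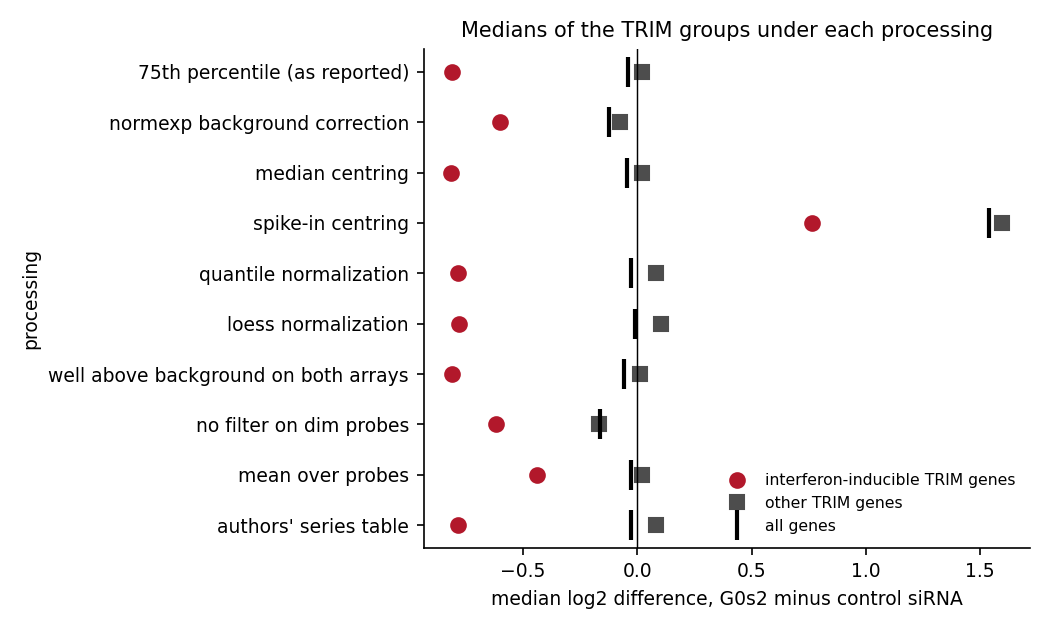
Median log2 difference (G0s2 siRNA minus control siRNA, x axis) of interferon-inducible TRIM genes (red circles), other TRIM genes (grey squares) and all genes (black bars) under the processing reported here and 9 others (y axis). The red circle lies to the left of the black bar and of the grey square in each row, and spike-in centring moves all 3 medians above 0. Median and spike-in centring shift each array by a constant, so their rows could hardly differ from the reported one in this order.

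Members that were not well above background on either array numbered 20, of which 19 belonged to the others. The share measured, 42 of 62 members, was similar to that of the whole array, 15419 of 23602 named genes. The members not above background included 9 of the 31 PRY-SPRY genes, among them Trim10, Trim15, Trim50, Trim58 and the muscle membrane repair gene Trim72. They also included 4 of the 7 genes with none of the domains named above, Trim29, Trim31, Trim40 and Trim52. At this depth of signal no difference in these genes could be detected, which does not show that they are not expressed.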

How the data were processed

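RNA from 1 control siRNA and 1 G0s2 siRNA sample was read on 1-colour Cy3 arrays. The deposited scanner tables hold linear spot intensity after the scanner's background correction, made with Agilent Feature Extraction 10.7.1.1 per the file headers. The authors' deposited series table holds intensity values with a median of 33.1 in both columns, whose normalization no source used here states; it served only as an alternative.

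Here, outlier-flagged and control spots were left out, spots of a probe were averaged, and log2 processed signals were centred on each array's 75th percentile. Genes were named through a RefSeq gene table of GRCm38.p6, and probe coordinates are those of the annotation on mm9. Where a gene was dim on 1 array, its fold is a bound, taken against the larger of that probe's signal and the dimmest signal well above background. The count rule was a log2 difference of 1 or more. Every interferon-inducible member, every member past 2-fold and the brightest members of each domain group were named. One probe for Trim62 under another name lay outside the name rule and was left out. No saturated spot was found. The members and lists were chosen with earlier results of these data known. With 1 array per group the number of arrays limits the precision.

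Alternatives were normexp correction (offset 50), median and spike-in centring, quantile and loess normalization (span 0.3), stricter and no filters on dim probes, averages over probes, the authors' table, other fold rules and other lists. The step that gives 1 value per gene was tested on simulated data. Python 3.11.15, numpy 2.4.6, pandas 2.3.3, statsmodels 0.14.6, R 4.3.3 and limma 3.58.1 were used.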

Additional observations from a re-analysis of the deposited data

How the results depend on the processing

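Under normexp 0 members were at least 2-fold higher, where 377 of 15419 genes were. Spike-in centring gave 0 lower and 30 higher members, where 38 of the 15419 genes were lower and 12661 higher. It turned the interferon-inducible median to 0.76, Trim12a to 0.35, Trim30a to 0.11 and Trim65 to 0.55, and moved the other members' median to 1.60 and G0s2 to -1.12. The 8 spike-in probes differed by -0.97 to -0.02 in log2 signal. Higher members numbered 1 with probes above background on both arrays, 4 without a filter and 1 when the difference also had to exceed 2 times the scanner error. The first 2 of these settings gave 651 of 14121 and 1191 of 23602 genes, and the third was not counted over all genes. A 1.5-fold rule gave 10 lower and 4 higher members, where all genes gave 14.6% and 12.4%, and a 3-fold rule 2 and 0, where all genes gave 1.53% and 1.14%. The wide list moved the interferon-inducible median to -0.37 and the gap to the other members, -0.83 as reported, to -0.39. Without the chromosome 7 copies they were -0.32 and -0.34. Over the alternatives the gap ran from -0.91 to -0.34. Median and spike-in centring shift each array by a constant, so they could not change the gap and do not test its sign. The sign held in each of the other alternatives run. The cause of these shifts was not tested, apart from fewer or more genes under other filters, rules and lists. No paired analysis was possible because each group has 1 array, which also leaves no replicate to leave out, and both arrays share a slide. Dim probes limit the result, since 20 members had no value and 4 rest on the G0s2 siRNA array alone.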

Other observations

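TRIM proteins whose genes carry other symbols lay outside the name rule. Pml, the organizer of nuclear bodies and itself induced by interferon, had levels of 1.94 with control siRNA and 1.42 with G0s2 siRNA. Its difference was -0.52 ± 0.20, but its other probe, well above background on both arrays, gave -0.14 ± 0.21. Mid2, a microtubule-binding member, had levels of -2.51 and -2.96, a difference of -0.45 ± 0.23, and its relative Mid1 differed by -0.10 ± 0.33. Cmya5, a muscle member, had levels of -3.99 and -2.79, a difference of 1.20 ± 0.29 or 2.30-fold higher. Mefv, the pyrin gene of inflammasome signalling, was well above background with G0s2 siRNA only. Its bound, 1.20-fold higher, could by the rule only lie above 0. On the log2 scale that bound was 0.26, smaller than the scanner error of 0.43. Fsd1 and Bspry were not well above background on either array. For Trim17 and Rnf207, well above background with G0s2 siRNA only, no fold could be given.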
